A study of Mus musculus with 6 samples.

Results

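The transcription complex formed by β-catenin and T-cell factors was examined here through 9 genes: Ctnnb1, which encodes β-catenin; Tcf7l2 and Tcf7l1, which encode the factors TCF4 and TCF3; Ctnnbip1, an inhibitor of β-catenin; Bcl9, Bcl9l and Pygo2, which encode coactivators; and Tle1 and Tle3, which encode corepressors. The genes were chosen by symbol, as the authors' table of the comparison pairs symbols with gene and transcript identifiers. They are 9 of 57010 genes in the deposited count table, of which 16909 had a count, and 38 of their 92 transcripts had a count. All cells were wild-type MLE-12, an immortalised mouse line labelled as lung epithelial. The I/R group (3 libraries) was kept in 1% O2 for 12 h and reoxygenated for 4 h, and the I/R + Dex group (3 libraries) received 10 µM dexmedetomidine, a sedative that activates alpha-2 adrenoceptors, for 12 h before the same procedure. Both groups therefore went through hypoxia and reoxygenation, and normoxic cells were not analysed here. Going by the title of the series, the comparison asks about β-catenin and TCF4 in cells given dexmedetomidine.

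β-catenin is held at low levels by a destruction complex, and Wnt signals let it accumulate and enter the nucleus. There it binds TCF and LEF proteins on DNA, displaces corepressors of the TLE family and recruits coactivators such as BCL9 and PYGO2, so that target genes are switched on. The proteins TCF4 and TCF3 differ in how strongly they activate or repress, and the ends of Tcf7l2 transcripts are known to be spliced in many ways, which sets the length of the carboxyl-terminal tail of the protein. The complex takes part in lung development and in the upkeep of the alveolar epithelium. Its activity is set largely by the amount and location of the β-catenin protein, which messenger RNA does not measure.

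The 6 libraries held 2333546 to 2941989 counts, so that 3 counts, taken as the floor, correspond to 1.02 to 1.29 CPM, the count relative to library size, and the 9 genes held 0.179% to 0.204% of each library. Intervals of shares and floors cover counting error only, since molecules were not tagged. The label of an epithelial line was not met by its markers. Of 10 alveolar type II markers, 5 had 0 counts in all libraries (Sftpc, Sftpb, Sftpa1, Sftpd and Nkx2-1), and the list summed to 8.62 to 23.0 CPM in I/R against 6.15 to 22.5 CPM in I/R + Dex. Abca3 was the highest of that list, with 9 to 45 counts in a library. Of 8 epithelial markers, 4 had 0 counts (Krt8, Krt18, Cldn4 and Cldn7), with sums of 1.53 to 2.76 and 0.0 to 2.32 CPM. All 8 fibroblast and mesenchymal markers had counts in some library, with sums of 888 to 1042 and 910 to 1104 CPM. Vim and Fn1 made up most of these sums, while Pdgfrb had at most 2 counts in a library and Pdgfra and Acta2 at most 16. All 4 leukocyte markers had counts (17.4 to 25.3 and 22.8 to 28.7 CPM), and 3 of 4 endothelial markers did (1.55 to 4.21 and 5.82 to 10.5 CPM). The endothelial sums did not overlap between the groups, while 9.13% of all genes tested did not. They rest on few counts: Pecam1 had 6, 2 and 4 in I/R, against 8, 14 and 12 in I/R + Dex. Cdh5 (0, 5 and 0 against 12, 0 and 0) and Kdr (5, 0 and 0 against 2, 10 and 2) overlapped. The part of these markers in any value of the 9 genes was not tested, and in bulk RNA fewer cells of a type and less RNA per cell cannot be told apart. In 2 libraries, I/R replicate 3 and I/R + Dex replicate 1, a larger part of the Ctnnb1 counts lay outside the coding transcript Ctnnb1-201 than in the other 4, so results that rest on them are given with and without these libraries.

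The transcripts of 4 genes were told apart by short stretches of sequence, taken from GENCODE M21 on build GRCm38, 5′ to 3′ on the strand of the gene. For Ctnnb1 (chromosome 9), the first lines show where transcripts annotated as retained introns part from the coding transcript Ctnnb1-201. They are given since the Ctnnb1 results turn on how reads were divided among these transcripts. Capitals are exon bases of Ctnnb1-201, and lower case marks bases outside its exons that the other transcript holds. Ctnnb1-209 runs on into such bases from an exon of Ctnnb1-201. Ctnnb1-210, Ctnnb1-215 and Ctnnb1-202 begin in such bases. For Ctnnb1-210 and Ctnnb1-202, the lower case shown is all they hold outside Ctnnb1-201.
Ctnnb1-209 retained intron start (chr9:120955943-120956002, plus strand): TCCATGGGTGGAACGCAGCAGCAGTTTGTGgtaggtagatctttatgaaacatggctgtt
Ctnnb1-210 start (chr9:120955297-120955358, plus strand): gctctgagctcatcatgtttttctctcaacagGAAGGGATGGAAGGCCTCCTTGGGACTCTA
Ctnnb1-215 bases 62 to 123 (chr9:120959277-120959338, plus strand): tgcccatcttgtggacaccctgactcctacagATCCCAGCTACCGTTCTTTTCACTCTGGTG
Ctnnb1-202 start (chr9:120955125-120955177, plus strand): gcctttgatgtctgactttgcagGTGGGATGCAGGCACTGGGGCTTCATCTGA

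Most bases of these transcripts also lie in Ctnnb1-201 (3623 bases, of which 2343 are coding). Ctnnb1-210 is 773 bases long and has 32 bases that Ctnnb1-201 lacks. Ctnnb1-202 has 23 such bases of 494, Ctnnb1-215 has 93 of 1292, and Ctnnb1-209 has 475 of 2359. All other bases of these 4 transcripts are shared, so a read that lies wholly within the shared bases does not identify its transcript.

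For Tcf7l2 (chromosome 19), the exons shown are those that distinguish its counted transcripts. Capitals are coding bases, except in the end of exon 6, where capitals mark 12 bases that Tcf7l2-208 and Tcf7l2-211 lack.
Tcf7l2 69-base exon (chr19:55755014-55755082, plus strand): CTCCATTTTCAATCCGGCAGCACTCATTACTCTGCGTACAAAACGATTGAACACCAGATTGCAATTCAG
Tcf7l2 exon 6 end (chr19:55910652-55910681, plus strand): cccccatccgctaggatgGTTAGTACCACA
Tcf7l2 49-base exon (chr19:55923896-55923944, plus strand): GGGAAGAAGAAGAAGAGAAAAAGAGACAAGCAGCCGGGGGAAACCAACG
Tcf7l2 51-base exon (chr19:55924530-55924580, plus strand): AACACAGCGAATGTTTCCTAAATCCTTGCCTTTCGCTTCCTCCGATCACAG
Tcf7l2 73-base exon (chr19:55925977-55926049, plus strand): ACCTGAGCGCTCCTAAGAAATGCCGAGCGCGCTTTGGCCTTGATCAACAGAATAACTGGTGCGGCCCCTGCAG
Tcf7l2 75-base exon (chr19:55926682-55926756, plus strand): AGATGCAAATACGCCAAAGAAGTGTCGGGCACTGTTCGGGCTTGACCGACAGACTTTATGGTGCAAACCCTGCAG

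Tcf7l2-213 joins the 49-, 73- and 75-base exons, lacks the 51-base exon and reads on for 421 coding bases into its last exon, the longest tail of the counted transcripts described here. Tcf7l2-209 holds the 49-, 51- and 73-base exons, and its reading frame ends before the last exon (0 coding bases there). Tcf7l2-201 keeps the 49-base exon alone of these tail exons, with 77 coding bases in its last exon, and Tcf7l2-211 keeps none of them, with 33. Tcf7l2-211 and Tcf7l2-208 share the 69-base exon and lack the 12 capital bases. Tcf7l2-208 also holds the 49- and 51-base exons and is annotated as a retained intron with no reading frame.

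For Tle1 (chromosome 4) and Tle3 (chromosome 9), the lines show where the main transcripts part. In the last exon of Tle1-205, capitals are bases shared with Tle1-203 and lower case is the start of its extension, which Tle1-203 splices out to reach exon 8. In Tle3-218 exon 6, capitals are 30 bases that Tle3-201 lacks, and the other lines are coding exons.
Tle1-205 last exon (chr4:72158187-72158242, minus strand): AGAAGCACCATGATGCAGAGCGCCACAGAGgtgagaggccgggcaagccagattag
Tle1-203 exon 8 (chr4:72152881-72152897, minus strand): AAAAGAGAGGTGGTACA
Tle3-218 exon 6 (chr9:61394608-61394712, plus strand): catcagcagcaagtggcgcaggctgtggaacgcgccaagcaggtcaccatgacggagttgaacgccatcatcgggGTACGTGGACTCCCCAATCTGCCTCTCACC
Tle3-218 exon 8 (chr9:61407125-61407144, plus strand): GAAACAGAAATAGCAGTACC
Tle3-201 exon 8 (chr9:61403452-61403468, plus strand): AGAGAGAGTCCAGCACG

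The levels of the 9 genes were compared per length, with the authors' gene FPKM. Ctnnb1 stood far above the others, at 272 ± 17.2 FPKM in I/R and 261 ± 22.5 FPKM with dexmedetomidine (SD, n = 3 each). Over all 6 libraries its mean of 266 FPKM was 15.0-fold that of Bcl9, the next gene, and higher than that of 98.6% of the genes with a count. Below it came Bcl9 (17.7 ± 4.28 FPKM, SD, n = 6), Tle1 (15.9 ± 1.55), Tle3 (10.3 ± 1.34), Bcl9l (10.0 ± 1.65), Pygo2 (7.5 ± 1.3), Tcf7l2 (5.79 ± 0.976), Ctnnbip1 (2.29 ± 0.732) and Tcf7l1 (1.31 ± 0.501). In this order of levels, neighbours had ranges that did not overlap at 3 places: between Ctnnb1 and Bcl9, between Tle1 and Tle3, and between Tcf7l2 and Ctnnbip1. The ranges of all other neighbours overlapped. By gene FPKM, the TCF genes and the inhibitor had the lowest means of the set, and Tcf7l2 had 91 to 163 counts in a library. In I/R replicate 1, however, Tle1-205 alone stood at 60.5 FPKM and its whole gene at 17.6. Likewise Tcf7l2-213 alone stood at 9.0 FPKM there and its gene at 6.91. The gene length used is thus longer than these transcripts, and the order of genes holds for this measure only.

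**Figure D1:**
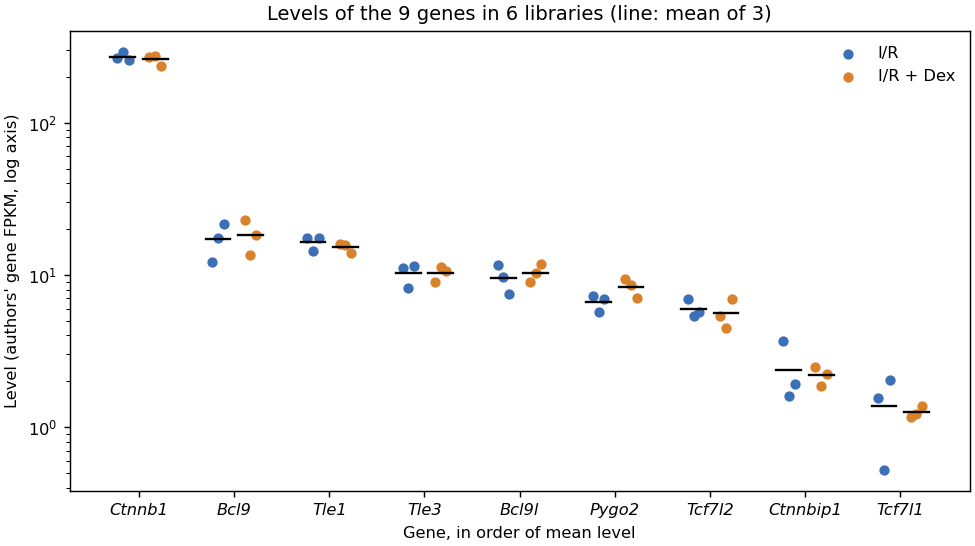
Level of each gene (authors' FPKM, log axis) in 6 libraries, with blue points for I/R, orange for I/R + Dex and a black line for the mean of 3. Ctnnb1 lies between 235 and 291 FPKM, and the points of the groups overlap for all 9 genes.

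None of the 9 genes differed between I/R + Dex and I/R by more than the spread between libraries allowed the test to call. In edgeR, 0 of 9 passed an adjusted p of 0.05 (all adjusted p = 1.0), 0 had an unadjusted p under 0.05, and DESeq2 called 0 of 9. Over all 7412 genes tested, 0.0675% passed the threshold and 3.39% had an unadjusted p under 0.05. The CPM of the groups overlapped for all 9 genes, while they did not for 9.13% of all genes tested. The fitted difference (log2) was above 0 for 3 genes and below 0 for 6, with a median of -0.06 against -0.01 over all genes tested.

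**Figure D2:**
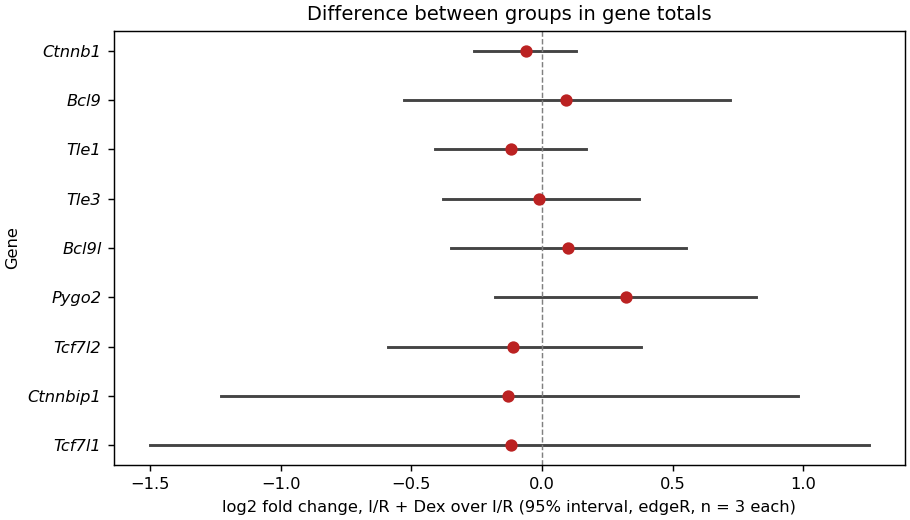
Difference between groups, as log2 of the ratio I/R + Dex to I/R, for each gene (points) with its 95% interval from edgeR (lines), in order of level. All 9 intervals cross 0, and they are widest for Tcf7l1 (-1.50 to 1.25) and Ctnnbip1 (-1.23 to 0.98), the genes with the fewest counts.

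Ctnnb1 (ENSMUSG00000006932, chromosome 9, 120762466 to 120789573, plus strand, GRCm39) encodes β-catenin, which joins cadherins to the cytoskeleton and acts as the coactivator of TCF proteins. Its counts were 3645, 4424 and 3508 in I/R, against 3691, 3287 and 2922 in I/R + Dex. Scaled to library size these were 1395, 1526 and 1355 CPM against 1430, 1444 and 1214 CPM. The highest library was in I/R and the lowest in I/R + Dex, with the other 4 between 1355 and 1444 CPM. Between the groups its log2 fold change was -0.06 ± 0.08 (SE), with a 95% interval from -0.26 to 0.13, which as a fold is 0.84 to 1.09. It was the narrowest interval among the 9 genes. Without I/R + Dex replicate 3 the value was 0.01, and without both I/R replicate 3 and I/R + Dex replicate 1 it was -0.14.

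The gene total of Ctnnb1 varied 1.26-fold in CPM from the lowest to the highest library, and its division among transcripts varied far more. Ctnnb1-201, the coding transcript, had counts of 3629, 4417 and 1177 in I/R, against 2615, 3151 and 2894 in I/R + Dex. These were 99.6%, 99.8% and 33.6% of the gene's counts in I/R, against 70.8%, 95.9% and 99.0% in I/R + Dex. I/R replicate 3 was the lowest by far and I/R + Dex replicate 1 the next, so the shares spread widely within each group and the groups overlapped. The edgeR log2 fold change of Ctnnb1-201 was 0.09 ± 0.47 (SE, 95% interval -1.09 to 1.27, adjusted p = 1.0), an error several times that of the gene total. It was -0.29 without I/R replicate 3, -0.02 without I/R + Dex replicate 2 and -0.18 without both libraries that stood apart.

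In the libraries where Ctnnb1-201 had a low share, the other counts lay on retained-intron transcripts. Ctnnb1-209 had 1587 counts in I/R replicate 3, 45.2% of the gene there, and 0 in the other 5 libraries. Ctnnb1-210 had 692 counts in I/R replicate 3 (19.7%) and 1069 in I/R + Dex replicate 1 (29%), and 0 in the other 4. Ctnnb1-202 had 49 counts in I/R replicate 3 and 0 elsewhere. Each of the 3 had at least 49 counts or 0. For a count of 0, the upper limit of the exact binomial 95% interval was 0.0833% to 0.126% of the assigned counts. Intervals of shares take each count as assigned to its true transcript. They do not bound the share in the RNA, since reads within shared bases do not identify their transcript. Retained-intron transcripts together held 66.4% of Ctnnb1 in I/R replicate 3 (exact binomial 95% interval 64.9% to 68.0%) and 29.1% in I/R + Dex replicate 1 (27.7% to 30.6%), against 0.158% to 4.14% in the other 4 libraries. Over all genes that share was 6.6% to 7.11% in every library, with 7.11% in I/R replicate 3 and 6.79% in I/R + Dex replicate 1. How the authors' counting divided reads between transcripts that share most of their bases was not tested.

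Ctnnb1-215, a single-exon retained-intron transcript, had counts of 16, 7 and 3 in I/R, against 5, 136 and 26 in I/R + Dex. One library, I/R + Dex replicate 2, held most of them, and the groups overlapped. For this transcript edgeR gave a log2 fold change of 2.87 ± 1.37 (SE, adjusted p = 1.0), and 0.96 without I/R + Dex replicate 2. In the usage test, which asks whether a transcript moved apart from the rest of its gene, its value was 2.76 with an unadjusted p of 0.0399 in edgeR and an adjusted p of 1.0, and 0.84 without that library. The usage value of Ctnnb1-201 was -0.02 relative to Ctnnb1-201 and Ctnnb1-215 alone, because Ctnnb1-209, Ctnnb1-210 and Ctnnb1-202 had too few libraries with counts to pass the filter. With no filter it was 0.16, and with limma voom it was -1.68 (limma adjusted p = 0.982). The remaining counted transcripts, Ctnnb1-205 and Ctnnb1-206, had at most 2 counts in a library.

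**Figure D3:**
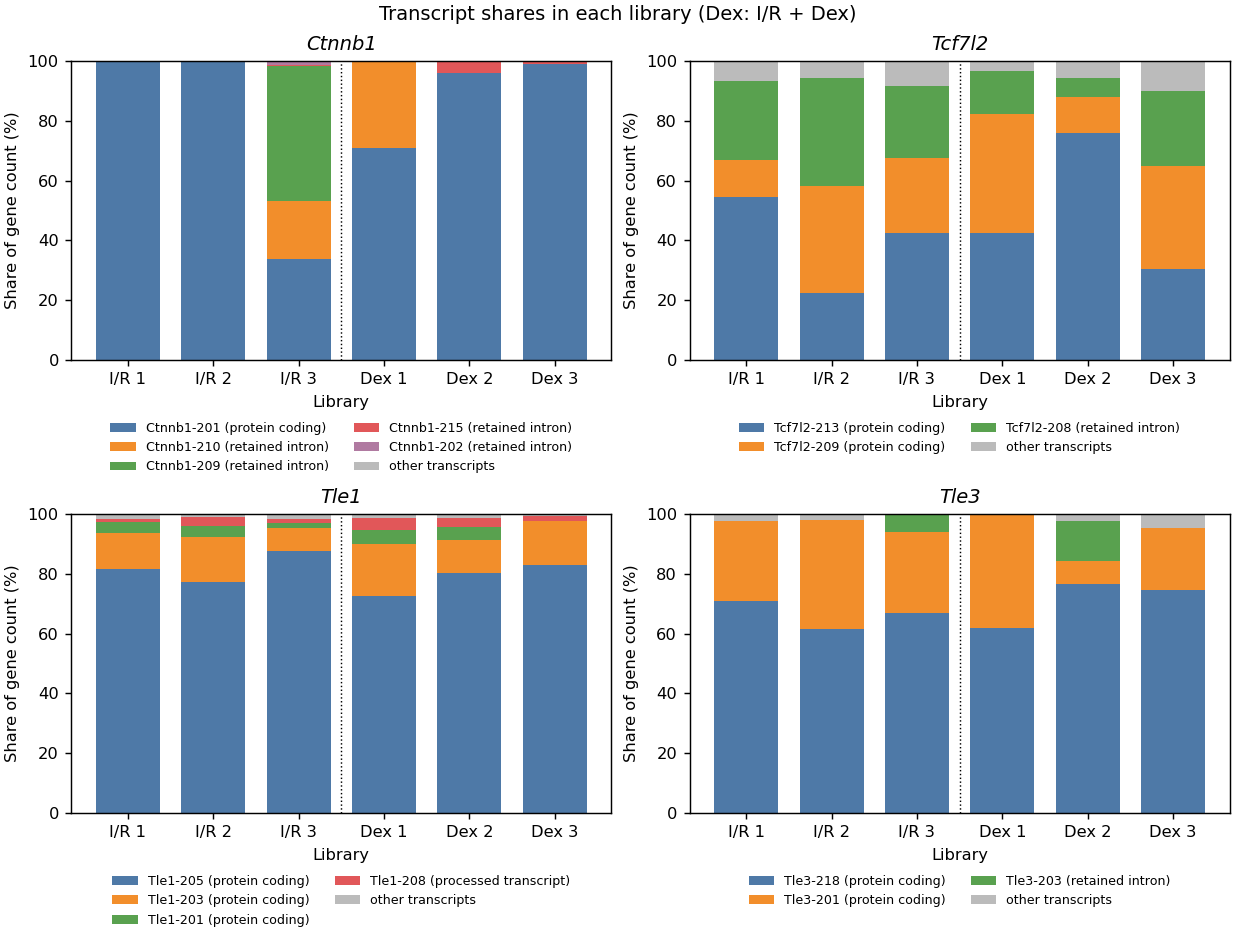
Share of each gene's counts (%) on its named transcripts, stacked for the 6 libraries of Ctnnb1, Tcf7l2, Tle1 and Tle3, with grey for all other transcripts and a dotted line between the groups. Ctnnb1-201 stands at 33.6% in I/R replicate 3 and 70.8% in I/R + Dex replicate 1, while Tle1-205 holds 72.6% to 87.5% of Tle1 in all 6.

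Such jumps between replicates were common in these tables. Among 2787 genes with at least 50 counts in every library and at least 2 counted transcripts, the share of some transcript ranged by a median of 16.4 percentage points between the libraries of a group (the larger of both groups), and by 50 points or more in 691 genes (24.8%). A transcript with 20% or more of its gene in 1 library and 0 in another of the same group was found in 889 genes (31.9%), and among the 9 in Ctnnb1 alone. The range was 66.3 points for Ctnnb1, larger than in 81.9% of these genes, and 45.4 points for Tcf7l2, larger than in 72.8%. It was 30.5 points for Tle3, 14.4 for Pygo2, 10.3 for Tle1, 2.43 for Bcl9 and 2.16 for Bcl9l. Tcf7l1 and Ctnnbip1 had 1 counted transcript each and no range.

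**Figure D4:**
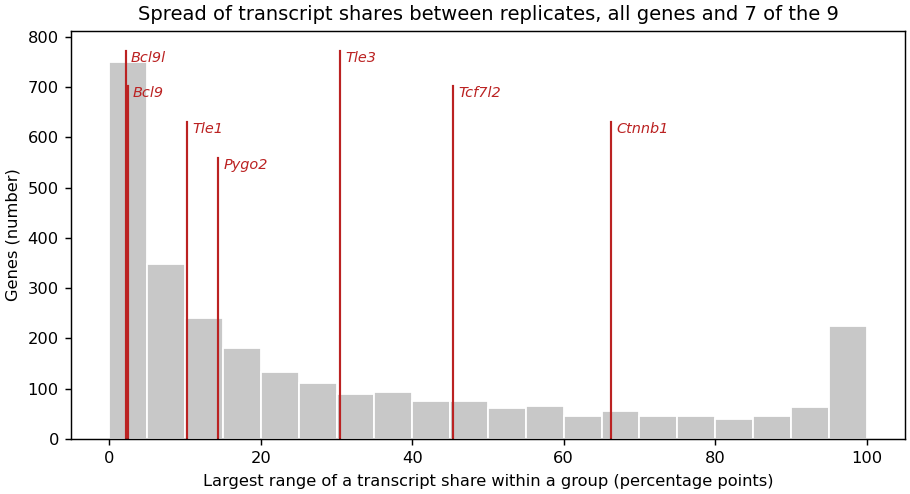
Number of genes (grey bars, 2787 genes) by the largest range of a transcript's share between the libraries of a group, in percentage points, with red lines at 7 of the 9 genes. Ctnnb1 lies at 66.3 and Tcf7l2 at 45.4 points, and Bcl9 and Bcl9l lie near 0.

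Tcf7l2 (ENSMUSG00000024985, chromosome 19, 55730252 to 55922086, plus strand, GRCm39) encodes TCF4, a DNA-binding partner of β-catenin. Its counts were 163, 139 and 132 in I/R, against 125, 91 and 148 in I/R + Dex. In CPM these were 62.4, 47.9 and 51 against 48.4, 40.0 and 61.5. The highest I/R + Dex library was level with the highest of I/R, and the groups overlapped. The log2 fold change was -0.11 ± 0.21 (SE), with a 95% interval from -0.59 to 0.38 and an adjusted p of 1.0 in edgeR. It was 0.02 without I/R replicate 1 and 0.03 without I/R + Dex replicate 2. As a fold, the interval spans 0.66 to 1.3.

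Of its transcripts, 3 were counted in every library. The long-tailed Tcf7l2-213 had counts of 89, 31 and 56 in I/R, against 53, 69 and 45 in I/R + Dex. Its share ran from 22.3% in I/R replicate 2 to 54.6% in I/R replicate 1, and from 30.4% in I/R + Dex replicate 3 to 75.8% in I/R + Dex replicate 2. Both Tcf7l2-209 and Tcf7l2-208 include the 51-base exon. Tcf7l2-209 had counts of 20, 50 and 33 in I/R, against 50, 11 and 51 in I/R + Dex, or 12.1% to 40.0% of the gene. Tcf7l2-213 and Tcf7l2-209 were at opposite ends in I/R replicate 1 and I/R + Dex replicate 2, where the first was at its highest shares and the second at its lowest. The shares spread widely within each group, with transcript log2 fold changes of 0.06 ± 0.49 for Tcf7l2-213 and 0.27 ± 0.64 for Tcf7l2-209 (SE, edgeR adjusted p = 1.0 for both) and usage values of 0.16 and 0.37. Without I/R replicate 2 the transcript value of Tcf7l2-213 was -0.27, without I/R + Dex replicate 2 it was -0.17, and without I/R + Dex replicate 3 that of Tcf7l2-209 was -0.05.

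The retained-intron transcript Tcf7l2-208, which has no reading frame, had counts of 43, 50 and 32 in I/R, against 18, 6 and 37 in I/R + Dex. Its share was 26.4%, 36.0% and 24.2% in I/R, against 14.4%, 6.59% and 25.0% in I/R + Dex. I/R + Dex replicate 3 lay above I/R replicate 3, so the groups overlapped by that library. The transcript log2 fold change was -0.88 ± 0.65 (SE, 95% interval -2.52 to 0.76, edgeR adjusted p = 1.0), and the usage value was -0.78 (edgeR adjusted p = 1.0). Without I/R + Dex replicate 2 the former was -0.46, and without I/R + Dex replicate 3 it was -1.66. The coding transcripts Tcf7l2-201 and Tcf7l2-211 were rare. Tcf7l2-209, described above, was not, though its 1377 coding bases are near theirs (1326 and 1305) and Tcf7l2-213 has 1818. Tcf7l2-201 had 11, 0 and 1 counts in I/R, against 4, 5 and 8 in I/R + Dex. Tcf7l2-211, which carries the 69-base exon, had 0, 6 and 10 in I/R, against 0 in all 3 I/R + Dex libraries. Tcf7l2-201 and Tcf7l2-211 were named though their mean count was under 10, after their values were seen.

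Tcf7l1 (ENSMUSG00000055799, chromosome 6, 72603361 to 72766237, minus strand, GRCm39) encodes TCF3, a family member known mostly as a repressor. It had 16, 6 and 21 counts in I/R, against 12, 11 and 13 in I/R + Dex, all on the coding transcript Tcf7l1-201. The I/R libraries held both the lowest and the highest value. In edgeR its log2 fold change was -0.12 ± 0.58 (SE, 95% interval -1.50 to 1.25), and 0.28 without I/R replicate 3. Ctnnbip1 (ENSMUSG00000028988, chromosome 4, 149602693 to 149650894, plus strand, GRCm39) encodes ICAT, a small protein that blocks the binding of β-catenin to TCF. It had 27, 13 and 14 counts in I/R, against 18, 12 and 15 in I/R + Dex, all on Ctnnbip1-201. I/R replicate 1 was the highest, and the other 5 libraries lay between 12 and 18. Between the groups its log2 fold change was -0.13 ± 0.47 (SE, 95% interval -1.23 to 0.98), and 0.32 without I/R replicate 1.

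The coactivators had 61 to 506 counts in a library. Bcl9 (ENSMUSG00000038256, chromosome 3, 97110978 to 97135646, minus strand, GRCm39), whose product links β-catenin to Pygopus proteins, had 270, 434 and 477 counts in I/R, against 506, 265 and 371 in I/R + Dex. Each group held a low and a high library, and the groups spanned nearly the same range. The log2 fold change was 0.09 ± 0.26 (SE, 95% interval -0.53 to 0.72), and it was -0.10 without I/R replicate 1 and -0.11 without I/R + Dex replicate 1. Its paralogue Bcl9l (ENSMUSG00000063382, chromosome 9, 44394122 to 44421719, plus strand, GRCm39) had 247, 228 and 156 counts in I/R, against 188, 189 and 227 in I/R + Dex, with I/R replicate 3 the lowest. Its log2 fold change was 0.10 ± 0.19 (SE, 95% interval -0.35 to 0.55), and -0.05 without I/R replicate 3. Bcl9-201 and Bcl9l-206, which are coding, held 97.0% to 99.4% and 97.4% to 100% of their genes' assigned counts. Reads within bases shared with the other transcripts do not identify their transcript.

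Pygo2 (ENSMUSG00000047824, chromosome 3, 89337521 to 89342435, plus strand, GRCm39) encodes a Pygopus protein that reads methylated histone H3 and is tethered to β-catenin by BCL9. It had the lowest unadjusted p of the 9 genes (0.176 in edgeR, adjusted p = 1.0). Its counts were 70, 61 and 66 in I/R, against 89, 72 and 61 in I/R + Dex, or 26.8, 21.0 and 25.5 CPM against 34.5, 31.6 and 25.3. I/R + Dex replicates 1 and 2 lay above all I/R libraries, and replicate 3 lay among them. In edgeR its log2 fold change was 0.32 ± 0.21 (SE, 95% interval -0.18 to 0.82), and 0.22 to 0.44 across the fits that left libraries out. The coding transcript Pygo2-201 held 77.0% to 92.1% of the counts (64, 47 and 60 in I/R, against 82, 62 and 51 in I/R + Dex), and its own log2 fold change was 0.32 ± 0.29 (SE), against 0.16 without I/R replicate 2 and 0.18 without I/R + Dex replicate 1.

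The corepressors are members of the Groucho family, which bind TCF proteins when β-catenin is absent. Tle1 (ENSMUSG00000008305, chromosome 4, 72035379 to 72119156, minus strand, GRCm39) had 407, 367 and 401 counts in I/R, against 365, 316 and 292 in I/R + Dex. In CPM these were 156, 127 and 155 against 141, 139 and 121, and I/R replicate 2 lay among the I/R + Dex libraries. Between the groups its log2 fold change was -0.12 ± 0.12 (SE, 95% interval -0.41 to 0.17), and it stayed between -0.21 and -0.06 in every alternative tried.

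Most Tle1 counts were assigned to a short transcript, Tle1-205, in all 6 libraries. Of its 2067 bases 1434 also lie in Tle1-203, and how the counting divided reads within shared bases was not tested. Tle1-205 had 333, 284 and 351 counts in I/R, against 265, 254 and 242 in I/R + Dex, which were 81.8%, 77.4% and 87.5% against 72.6%, 80.4% and 82.9% of the gene. Per length it stood at 47.2 to 64.3 FPKM, while the full-length coding transcript Tle1-203 stood at 2.77 to 5.48 FPKM. Tle1-205 has 7 exons and lacks 13 coding exons of Tle1-203. Of its 600 coding bases 577 are shared with Tle1-203, and 23 lie in the 633-base extension of its last exon, whose start is shown above, so the annotated reading frame ends soon after exon 7. In Groucho proteins the amino-terminal part mediates assembly into tetramers and the carboxyl-terminal part forms a WD40 propeller. Tle1-203 had 49, 55 and 32 counts in I/R, against 63, 34 and 43 in I/R + Dex (7.98% to 17.3%). Tle1-201, another long coding form, had 14, 13 and 6 in I/R, against 17, 14 and 0 in I/R + Dex, and Tle1-208, a transcript without a reading frame, had 5, 12 and 5 in I/R, against 15, 10 and 5 in I/R + Dex. The log2 fold change of Tle1-205 was -0.20 ± 0.16 and that of Tle1-203 0.19 ± 0.32 (SE, edgeR adjusted p = 1.0 for both), and the usage value of Tle1-205 was -0.08. Without I/R replicate 2 the transcript value of Tle1-205 was -0.33 (edgeR unadjusted p = 0.0483, adjusted p = 1.0), and without I/R replicate 3 it was -0.11. Without I/R + Dex replicate 1 that of the transcript Tle1-203 was -0.03.

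Tle3 (ENSMUSG00000032280, chromosome 9, 61279648 to 61325779, plus strand, GRCm39) had 342, 280 and 350 counts in I/R, against 275, 300 and 296 in I/R + Dex. I/R replicate 2 was low and the other I/R libraries high, with I/R + Dex within that range after scaling (96.6 to 135 CPM against 107 to 132 CPM). The log2 fold change was -0.01 ± 0.16 (SE, 95% interval -0.38 to 0.37), the smallest of the 9, and its sign turned in 6 of 11 alternatives. Tle3-218, with the 30 additional bases in exon 6, had 242, 172 and 234 counts in I/R, against 170, 230 and 221 in I/R + Dex, or 61.4% to 76.7% of the gene. Tle3-201 had 92, 103 and 95 in I/R, against 105, 23 and 61 in I/R + Dex (7.67% to 38.2%), with I/R + Dex replicate 2 the lowest. The retained-intron transcript Tle3-203, which holds both forms of exon 8, had 21 counts in I/R replicate 3, 40 in I/R + Dex replicate 2 and 0 in the other 4. The transcript log2 fold changes were 0.09 ± 0.26 for Tle3-218 and -0.50 ± 0.51 for Tle3-201 (SE, edgeR adjusted p = 1.0 for both). For Tle3-201 it was -1.02 without I/R + Dex replicate 1 and -0.12 without I/R + Dex replicate 2.

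Over all 9 genes, 20 transcripts had a mean of at least 10 counts in a group and are described above, and the other 18 held 206 counts in all. Of the 16 transcripts tested, 0 passed an adjusted p of 0.05 in edgeR and 0 had an unadjusted p under 0.05 (lowest 0.0874, Ctnnb1-215), and DESeq2 called 0 of them. Over all 9882 transcripts tested, edgeR called 0.0% and 2.92% had an unadjusted p under 0.05. Of the 11 transcripts of Ctnnb1, Tcf7l2, Tle1 and Tle3 in the usage test, 0 passed and 1 had an unadjusted p under 0.05 (Ctnnb1-215), against 0.693% and 1.99% of 4473 transcripts, and limma voom called 0. The shares of the groups overlapped for all 11, whereas 10.0% of the 4473 transcripts had shares that did not overlap. The authors' deposited table lists 26 of these transcripts and marks 0 of them as significant, against 0.577% of its 18021 transcripts. In the authors' deposited table Ctnnb1-215 has a log2 fold change of 2.89 with a p-value of 0.0309 and an adjusted p-value of 0.708, the lowest adjusted p-value among the 26.

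Other genes of the complex were read from 3 lists. Of 12 genes of TCF/LEF proteins and corepressors, 8 were tested, and 0 rose and 0 fell (median log2 fold change -0.02). The lowest unadjusted p values there belonged to Hdac1, a histone deacetylase recruited by corepressors (-0.05), and to Tle4, another Groucho gene (-0.10). Tcf7, which encodes TCF1, had 17, 83 and 120 counts in I/R, against 134, 87 and 24 in I/R + Dex, and Lef1 had 0 in I/R, against 2, 3 and 0 in I/R + Dex. Both were chosen after their values were seen, as the remaining TCF/LEF genes. The counts of Tcf7 thus spread within each group by more than those of Tcf7l2.

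Of 21 coactivators, 20 were tested, and 0 rose and 0 fell (median -0.02), with 2 at an unadjusted p under 0.05. Ctr9, a subunit of the PAF complex of elongating RNA polymerase, had 246, 255 and 226 counts in I/R, against 295, 248 and 250 in I/R + Dex, with a log2 fold change of 0.28 ± 0.10 (SE, edgeR unadjusted p = 0.0312). Ruvbl1, an AAA ATPase that binds β-catenin, had 280, 331 and 245 against 223, 207 and 170 counts and a log2 fold change of -0.35 ± 0.14 (SE, edgeR unadjusted p = 0.0414). Of 16 binders and regulators of β-catenin outside the destruction complex, 12 were tested, and 0 rose and 0 fell (median 0.08), with 1 at an unadjusted p under 0.05. Chd8, a chromatin remodeller that restrains β-catenin, had 460, 520 and 507 counts in I/R, against 546, 502 and 563 in I/R + Dex, with a log2 fold change of 0.27 ± 0.09 (SE, edgeR unadjusted p = 0.0170). Lzts2, which promotes nuclear export of β-catenin, had 57, 52 and 51 against 27, 34 and 34 counts and a value of -0.59 ± 0.26 (SE, edgeR unadjusted p = 0.0536). Of the 40 genes tested in the 3 lists, 19 lay above 0 and 21 below. None passed the adjusted threshold, and 3.39% of all genes tested had an unadjusted p under 0.05.

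As a description over the same 6 libraries, in which all genes share depth and scaling, the genes most like Ctnnb1 in log2 CPM were Tsc1 (Pearson's r 0.986), Spty2d1 (0.985) and Tbl3 (0.983), and those most like Tcf7l2 were Cited2 (0.991), Cyfip2 (0.984) and Rnf157 (0.981). Of 7411 genes compared, 75 exceeded an r of 0.9 with Ctnnb1 and 42 did with Tcf7l2. None of the other 8 genes exceeded 0.9 with Ctnnb1 or with Tcf7l2, the nearest being Ctnnbip1 with Tcf7l2 (0.643). Ctnnb1 and Tcf7l2 themselves had an r of -0.633.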

How the data were processed

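Poly(A) RNA of 6 MLE-12 libraries was sequenced, per the labels, as paired-end reads, with 3 libraries in each group, all in the same batch. Groups and replicate numbers came from the labels, and the series' text calls the replicates independent and biological without saying whether they were separate cultures, so p-values measure only the spread between these libraries. The gene and transcript counts are whole numbers as deposited, not normalised, per the file headers and values. The gene and transcript FPKM were made by the authors, per the file headers, and were used for levels per length. Per the file headers, the authors' table holds per transcript the log2 fold change with its raw and adjusted p-value. The submitters' processing notes name HISAT2 2.1.0, StringTie 2.2.4, DESeq2 1.30 and the build GRCm39. For the counting step, its use of strand and the annotation release, nothing is stated in the sources used here.

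Tests on gene and transcript counts used edgeR 4.0.16 under R 4.3.3 (filterByExpr, TMM, robust quasi-likelihood test, Benjamini-Hochberg adjustment over all features tested, threshold 0.05), and usage with diffSpliceDGE, whose value is the log2 fold change of a transcript minus that of the tested transcripts of its gene. CPM divide counts by TMM-scaled library sizes, and log2 CPM used a prior count of 2. Intervals of shares are exact binomial (Clopper-Pearson). Scripts were tested on simulated counts with large known changes in features with many counts. That does not bear on smaller changes or on genes with few counts. Alternatives were DESeq2 1.42.0, DESeq2 size factors, no filter, limma 3.58.1 voom with diffSplice, a replicate block and leaving out libraries. The 9 genes and the pathway and marker lists were chosen with earlier results of these data known. All 9 genes were named, with every transcript of a mean count of at least 10 in a group, from each list the genes past the threshold or else up to 2 with the lowest unadjusted p, and the 3 genes most like Ctnnb1 and Tcf7l2.

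Gene coordinates are the authors' (GRCm39). Transcript types, exons and sequences with their coordinates came from GENCODE M21 (GRCm38). The length of all 26 transcripts listed in the authors' table, and the length implied by FPKM for the other 12, equalled that of the reference. For all 9 genes the transcripts summed to the gene count. Of 17 reference genes that overlap the 9, 2 had counts, with at most 8 in a library (Ulk4 opposite Ctnnb1) and 7 (Gm47205 opposite Bcl9l), and reads of opposite strands may not be separable.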

Additional observations from a re-analysis of the deposited data

How the results depend on the processing

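For the 9 genes and those named transcripts that passed the filter in genes with more than 1 counted transcript, 34 results in all, 0 of 363 alternative values passed the threshold, and 48 of those values changed sign. The gene values of Pygo2 and Tle1 did not change sign. Called genes numbered 5 in the reported fit, 16 with DESeq2, 0 with the replicate block, 1 without both I/R replicate 3 and I/R + Dex replicate 1 (an alternative chosen after seeing the data), and 0 to 4 with single libraries left out (0 without I/R replicate 2). Called transcripts numbered 0, but 12 with no filter, 134 with DESeq2, 0 with the replicate block and 0 to 3 with libraries left out. Transcripts called in usage numbered 31, but 14 with no filter, 3 with the replicate block and 10 to 44 with libraries left out. The cause was not tested.

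No shared deviation was seen by replicate number: deviations of same-numbered libraries correlated at 0.0234, -0.0096 and -0.0042. These values cannot tell whether the libraries were paired, which the labels do not state. With the replicate block the log2 fold change was 0.02 for Tcf7l1, 0.0036 for Tle3 and -0.57 for Tle1-201, and the usage value of Tle1-201 was -0.53. With limma the usage value was -1.68 for Ctnnb1-201, 1.68 for Ctnnb1-215, -0.86 for Tle1-201, -1.32 for Tcf7l2-208, 0.65 for Tcf7l2-213, -0.29 for Tle1-205, -0.77 for Tle3-201 and 0.77 for Tle3-218. With no filter, Tle3 was at 0.0017 and the usage value of Ctnnb1-201 at 0.16. With libraries left out, including the pair above, gene values ranged from -0.14 to 0.01 for Ctnnb1, -0.28 to 0.03 for Tcf7l2, -0.52 to 0.32 for Tcf7l1, -0.36 to 0.32 for Ctnnbip1, -0.11 to 0.30 for Bcl9, -0.05 to 0.27 for Bcl9l and -0.14 to 0.16 for Tle3. Transcript values ranged from -0.29 to 0.37 for Ctnnb1-201, -0.05 to 0.69 for Tcf7l2-209, -0.27 to 0.52 for Tcf7l2-213, -0.13 to 0.29 for Bcl9-201, -0.06 to 0.29 for Bcl9l-206, -0.21 to 0.34 for Tle1-203, -0.68 to 0.64 for Tle1-201, -0.09 to 0.33 for Tle3-218, -1.02 to -0.12 for Tle3-201, -0.33 to -0.10 for Tle1-205, 0.08 to 1.07 for Tle1-208, 0.16 to 0.46 for Pygo2-201, -1.66 to -0.46 for Tcf7l2-208 and 0.96 to 3.71 for Ctnnb1-215. Usage values ranged from -0.15 to 0.02 for Ctnnb1-201, -0.01 to 0.74 for Tcf7l2-209, -0.20 to 0.49 for Tcf7l2-213, -0.12 to 0.03 for Tle1-205, -0.08 to 0.50 for Tle1-203, -0.56 to 0.70 for Tle1-201, 0.02 to 0.31 for Tle3-218, -1.06 to -0.06 for Tle3-201, 0.21 to 1.28 for Tle1-208, -1.42 to -0.49 for Tcf7l2-208 and 0.84 to 3.43 for Ctnnb1-215. Adding the counts of near-identical copies was not run, since blastn 2.17.0 found 0 copies (90% identity over 200 bases and 50% of the transcript). Depth limits Tcf7l1 and Ctnnbip1 most, with 6 to 27 counts in a library.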
